A study of Mus musculus with 2 samples.

Results

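Genes of the BCL2 family decide whether a cell lives or dies at the outer membrane of its mitochondria, and 10 of them were followed here: the survival genes Bcl2, Bcl2l1 and Mcl1, the pore-forming death genes Bax and Bak1, and the BH3-only death genes Bcl2l11, Bbc3, Pmaip1, Bid and Bad. They were chosen by name, and all probe sets that the array's platform annotation gives to a single member were read. That gave 29 of 45037 probe sets, for 9 of the 10 genes (of 18193 genes named on the array). No probe set carried the single symbol Bax in the annotation used here, so Bax was not analysed here. Of the 29 probe sets 27 were measured, meaning that at least 1 array had a signal above a floor of 10.3, the 40th percentile of all signals.

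The messenger RNA came from splenic antigen-presenting cells (APCs) of female wild-type C57BL/6 mice aged 10 weeks. These cells spent a night in culture with CD4+ T cells carrying the P25 T cell receptor, which recognises the mycobacterial peptide P25 on MHC class II. In the P25 group the peptide was added, and in the medium group medium was given in its place. T cells were thus present in both groups. APCs were enriched from the culture afterwards, and each group was 1 Affymetrix array of RNA mixed from 3 independent experiments. The mixing leaves no spread between experiments to test against, so every value below describes these 2 arrays and no p-value is given. Disagreement between probe sets of a gene served as a partial gauge of error. In 5293 genes whose 2 brightest probe sets could be compared, the difference between their log2 ratios had an SD of 0.58. Both probe sets are read on the same 2 arrays, so this SD misses any error common to a whole array. Log2 ratios of the 18 hybridization spike-ins varied less, with an SD of 0.10 around a median of -0.15, but they cover few transcripts and none of the steps before hybridization. The median signal was 17.96 for P25 and 18.36 for medium, and the number of arrays limits the precision.

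In this family BAX and BAK are the proteins that perforate the outer mitochondrial membrane and let cytochrome c out. BCL2, BCL-xL (the main product of Bcl2l1) and MCL1 hold them in check. BH3-only proteins such as BIM (from Bcl2l11), PUMA (Bbc3), NOXA (Pmaip1), BID and BAD occupy or displace the survival proteins, and some of them can act on BAX and BAK directly. In lymphocytes BIM is a known brake on survival after activation, and Bcl2l1 is a known target of CD40 and NF-κB signals in B cells.

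Bcl2l1 was the single member at least 2-fold higher with P25, and none was at least 2-fold lower. This is 1 of 9 measured members higher, where 9.43% of the 12897 genes measured passed this fold upwards and 7.22% downwards, so the count itself is close to the background. At 1.5-fold, 3 members were higher (background 20.9%), with Bid and Bak1 added, and Bcl2l11 alone was lower (background 18.3%). On the same arrays the markers of B cells (median log2 ratio -0.63), macrophages (-1.43) and neutrophils (-1.25) were lower with P25, and in mixed cells fewer cells of a type and less RNA per cell cannot be told apart. All 9 genes were above the floor on both arrays. Their median log2 ratio of P25 over medium was -0.14, against 0.02 over all measured genes. By the brightest probe set of each gene, Bcl2l1, Bid and Bak1 had log2 ratios above 0, and Mcl1, Bcl2, Bad, Pmaip1, Bbc3 and Bcl2l11 below 0. Counted by probe set, 9 of the 27 lay above 0 and 18 below, with 4 at least 2-fold higher, of which 3 were those of Bcl2l1 and 1 was of Bid. The same counts were not taken over all measured probe sets, so these have no background to be set against.

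**Figure D1:**
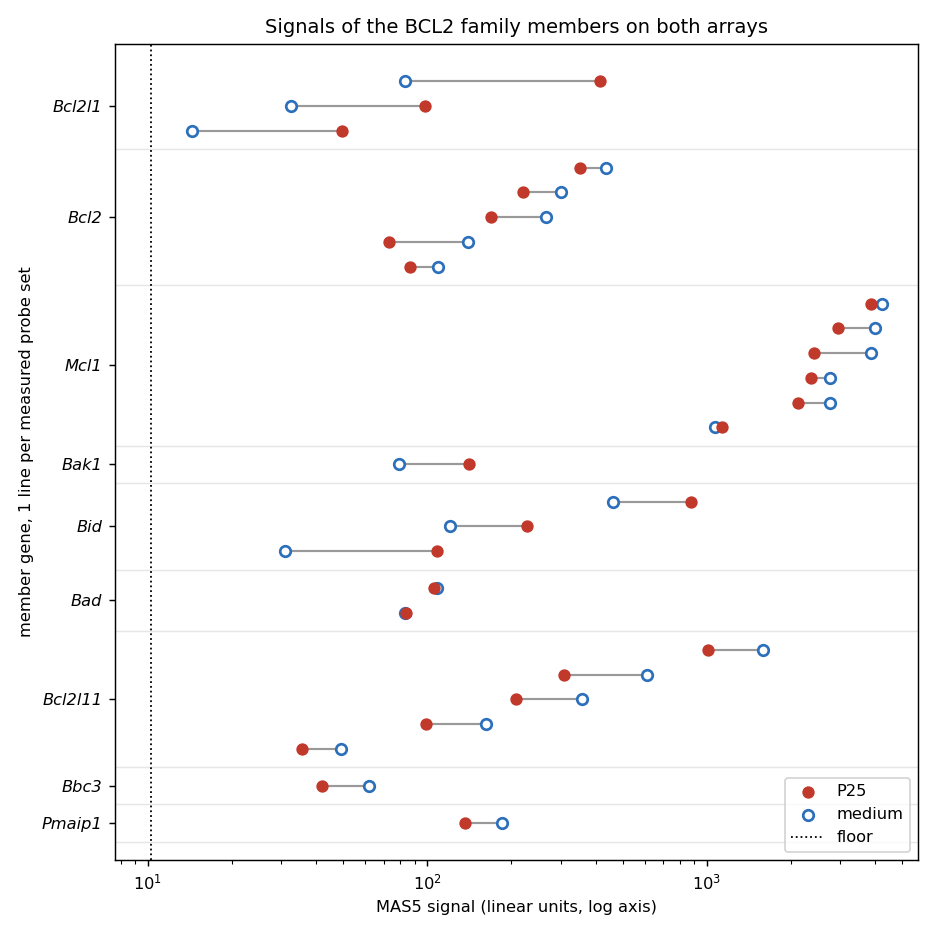
MAS5 signal (log axis) of each measured probe set of the 9 members, with 1 line per probe set, filled points for the P25 array, open points for the medium array and a dotted line at the floor of 10.3. The P25 points lie to the right for Bcl2l1, Bid and Bak1, and to the left for Bcl2, Bcl2l11, Bbc3, Pmaip1 and 5 of the 6 probe sets of Mcl1.

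The start-site windows of 4 members are shown, taken from RefSeq on GRCm38.p6. They are those of Bcl2l1, the member with the largest ratio, of Mcl1 and Bcl2l11, which lay below 0, and of Bid, the BH3-only gene that lay above 0. Each window runs from 250 bases before to 50 bases after an annotated start, 5′ to 3′ on the strand of the gene. The positions are chr2:152830668-152830967 for Bcl2l1 (minus strand, the window with a motif match among its 3), chr3:95658471-95658770 for Mcl1 (plus strand), chr2:128125788-128126087 for Bcl2l11 (plus strand, the window with a match among its 2) and chr6:120916775-120917074 for Bid (minus strand). Capitals mark motif matches.
Bcl2l1: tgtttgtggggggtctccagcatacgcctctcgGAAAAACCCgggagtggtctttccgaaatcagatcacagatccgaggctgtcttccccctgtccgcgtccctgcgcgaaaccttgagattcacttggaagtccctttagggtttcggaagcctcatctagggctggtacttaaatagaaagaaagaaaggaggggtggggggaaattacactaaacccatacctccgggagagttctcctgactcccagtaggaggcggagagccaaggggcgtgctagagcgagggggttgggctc
Mcl1: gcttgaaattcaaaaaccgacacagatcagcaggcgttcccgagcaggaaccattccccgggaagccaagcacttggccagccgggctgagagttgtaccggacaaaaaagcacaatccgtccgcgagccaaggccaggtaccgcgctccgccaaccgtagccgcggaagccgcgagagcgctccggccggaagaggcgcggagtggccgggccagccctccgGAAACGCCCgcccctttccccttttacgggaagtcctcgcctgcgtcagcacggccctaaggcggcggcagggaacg
Bcl2l11: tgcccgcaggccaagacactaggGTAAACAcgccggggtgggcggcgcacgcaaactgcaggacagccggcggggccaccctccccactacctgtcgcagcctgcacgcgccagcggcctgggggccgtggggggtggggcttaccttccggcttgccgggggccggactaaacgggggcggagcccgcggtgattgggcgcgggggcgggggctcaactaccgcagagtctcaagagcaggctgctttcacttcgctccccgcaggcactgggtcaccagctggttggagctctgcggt
Bid: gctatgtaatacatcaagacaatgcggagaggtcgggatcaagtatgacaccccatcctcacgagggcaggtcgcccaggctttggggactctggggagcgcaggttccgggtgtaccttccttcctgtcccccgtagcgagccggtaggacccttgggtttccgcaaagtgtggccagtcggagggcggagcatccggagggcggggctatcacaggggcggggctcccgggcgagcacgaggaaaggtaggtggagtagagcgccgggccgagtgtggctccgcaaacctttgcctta

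The capitals in Bcl2l1 and Mcl1 match a κB pattern, GGGNNTTTC on either strand, which 4.36% of all 32851 such windows in the table hold. The match in Bcl2l1 begins 217 bases before the start, and that in Mcl1 27 bases before it. In Bcl2l11 the capitals are a forkhead pattern, TGTTTAC on either strand, found in 3.65% of windows. No match of either pattern, nor of TTCNNNGAA (interferon-γ activation site, 8.3% of windows), GAAANNGAA (interferon response core, 8.56%), CACGTG (E box, 7.15%) or TTTCCCGC (E2F, 1.07%), is in the Bid window. Windows on chromosome 18, which carries Pmaip1, were left out of the member windows but not of the 32851. That left 15 windows for 9 of the 10 genes, here with Bax and without Pmaip1. Of these windows 3 held the κB pattern, the third being of Bbc3, 2 the forkhead pattern (Bcl2l11 and Bbc3) and 2 the E box (Bbc3 and Bax). The patterns were chosen after the ratios were known, a match is only a description of letters, and which start the cells used was not measured.

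Bcl2l1, whose main protein BCL-xL keeps the mitochondrial membrane closed, had a signal of 415 with P25 and 82.9 with medium on its brightest probe set. That is 5.01-fold higher with P25, a log2 ratio of 2.33. Its other measured probe sets had signals of 98.3 (P25) and 32.5 (medium), or 3.03-fold, and of 49.5 (P25) and 14.4 (medium), or 3.44-fold. A further probe set was below the floor on both arrays (4.37 with P25 and 0.842 with medium). All 3 measured probe sets were thus at least 2-fold higher, which held for 2.94% of the 1598 genes with exactly 3 measured probe sets. Of all 12897 measured genes 82, Bcl2l1 among them, had a log2 ratio as high or higher (0.636%).

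The other survival genes did not share this difference. Bcl2, the founding member and a survival gene of resting lymphocytes, had signals of 351 with P25 and 437 with medium on its brightest probe set, a log2 ratio of -0.32. All 5 of its probe sets lay below 0, down to -0.94 on the probe set with 72.8 (P25) and 140 (medium), with a median of -0.45 and an SD of 0.26 between them. All 5 below 0 was met in 19.9% of the 306 genes with exactly 5 measured probe sets, so this is a usual pattern on these arrays. None of the 5 reached 2-fold.

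Mcl1, which encodes a short-lived survival protein controlled largely by its turnover, was bright on both arrays. Its brightest probe set read 3855.9 with P25 and 4236.4 with medium (log2 ratio -0.14), and its dimmest read 1129.6 with P25 and 1066.4 with medium (0.08). Over its 6 probe sets the log2 ratios ran from -0.67 to 0.08 with a median of -0.31, 5 of them below 0. Saturation of such bright signals was not tested. Differences between members do not change when a whole array is multiplied by a constant, though loess moves them: as deposited, Bcl2l1 exceeded Bcl2 by 2.64 and Mcl1 by 2.46 in log2 ratio, and the lowest probe set of Bcl2l1 still lay 1.91 above the highest of Bcl2 and 1.52 above the highest of Mcl1. These gaps are wider than the SD of 0.58 between probe sets of a gene, which is not a spread between experiments.

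**Figure D2:**
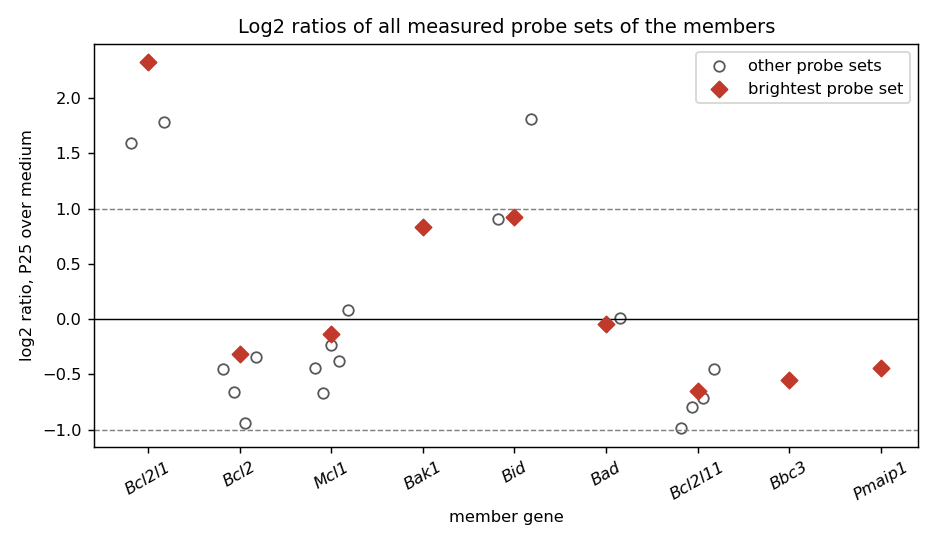
Log2 ratio of P25 over medium for the measured probe sets of each member, with a filled diamond for the brightest probe set, open circles for the others and dashed lines at 2-fold. The 3 probe sets of Bcl2l1 lie between 1.60 and 2.33, those of Bid between 0.91 and 1.81, and all 5 of Bcl2 and all 5 of Bcl2l11 below 0.

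Among the pore-forming genes Bak1 alone could be read. Its brighter probe set had a signal of 141 with P25 and 79.2 with medium, 1.78-fold higher (log2 ratio 0.83). The other was below the floor on both arrays, with 9.20 for P25 and 2.31 for medium. Bak1 was therefore within 2-fold and rests on 1 probe set, and 13.1% of measured genes had a ratio as high or higher.

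The BH3-only genes went different ways. Bid, whose protein is cut by caspase-8 to carry a death receptor signal to mitochondria, had a signal of 876 with P25 and 461 with medium on its brightest probe set. It was 1.90-fold higher, just within 2-fold, and 11.0% of measured genes were as high or higher. The second probe set read 227 with P25 and 121 with medium (1.88-fold), and the third, the dimmest, read 108 with P25 and 30.8 with medium (3.51-fold). All 3 exceeded 1.5-fold, as in 8.14% of genes with exactly 3 measured probe sets.

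Bcl2l11, which encodes BIM, had the lowest log2 ratio of the members, -0.65, from signals of 1013.7 with P25 and 1592.3 with medium. Its other probe sets gave 308 with P25 and 612 with medium (-0.99), 207 with P25 and 359 with medium (-0.80), 98.7 with P25 and 162 with medium (-0.71), and 35.7 with P25 and 49.0 with medium (-0.45). The 5 probe sets covered a wide range of brightness, and their log2 ratios had an SD of 0.20. Each of them lay below 0, as in 19.9% of genes with 5 measured probe sets, and none was at least 2-fold lower. Of all measured genes 15.8% had a ratio as low or lower.

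Bbc3, which encodes PUMA, a p53 target, had a single, dim probe set with 42.0 for P25 and 61.6 for medium (log2 ratio -0.55). Pmaip1, which encodes NOXA, a partner of MCL1, also had a single probe set, with 136 for P25 and 185 for medium (-0.44). No second probe set was at hand to check either ratio. The SD of 0.58 belongs to a difference between 2 ratios, so it does not measure the error of a single one. Whether these ratios differ from 0 beyond error was not tested. Bad, whose protein is silenced by phosphorylation downstream of growth factor signals, had nearly equal signals, 105 with P25 and 109 with medium on one probe set and 83.9 with P25 and 83.4 with medium on the other. Its log2 ratios of -0.04 and 0.01 were the nearest to 0 among the members. The log2 ratio of Bid exceeded that of Bcl2l11 by 1.58, with 1.36 between its lowest and the highest probe set of Bcl2l11, and exceeded that of Bbc3 by 1.48, of Pmaip1 by 1.37 and of Bad by 0.97.

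**Figure D3:**
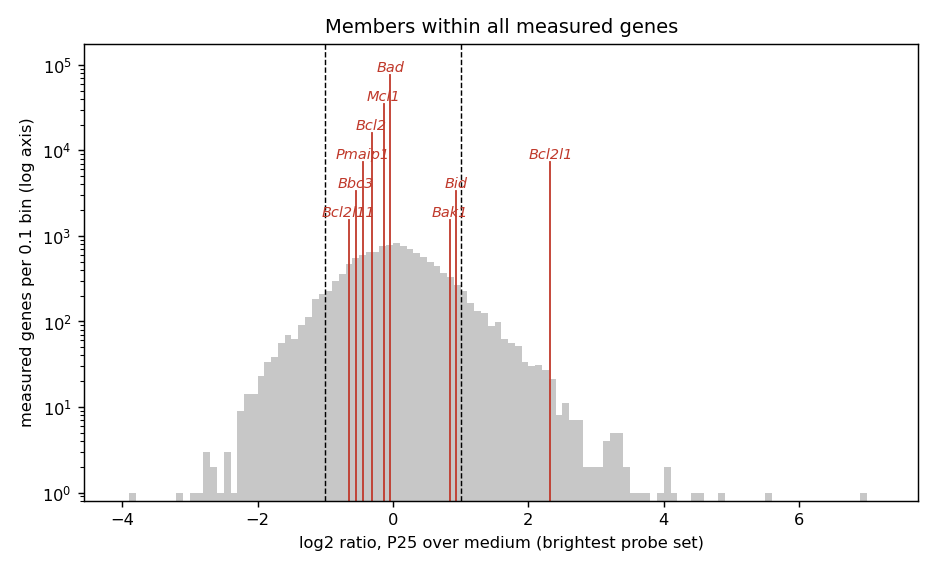
Number of measured genes (log axis) by log2 ratio of P25 over medium in bins of 0.1, with a red line for each of the 9 members and dashed lines at 2-fold. Bcl2l1 at 2.33 lies in the upper tail, Bid (0.93) and Bak1 (0.83) just inside the 2-fold line, and the other 6 between -0.65 and -0.04.

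Scaling set the sign of the smallest ratios. With both arrays brought to 1 median over measured probe sets, or to 1 level of the 18 hybridization spike-in probe sets, the median log2 ratio of all measured genes went to 0.15 and 0.16. Under these scalings Mcl1 and Bad came to lie above 0, and Bid passed 2-fold with log2 ratios of 1.07 and 1.08. Both scalings shift nearly all ratios by the same amount, so Mcl1 and Bad stayed below the median of all genes by construction. After loess, Bad (0.13) lay above that median (0.05) and Mcl1 (-0.30) below it. Bcl2l1 was at least 2-fold higher under each of the 5 alternatives that moved its value, of 8 tried, with log2 ratios from 1.78 to 2.48. Bak1 passed 2-fold after loess alone (1.01). Bcl2l11 stayed below 0 under the 6 that moved it, from -0.99 to -0.50, and Bcl2, Bbc3 and Pmaip1 stayed below 0 under the 5, 4 and 4 that moved them.

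**Figure D4:**
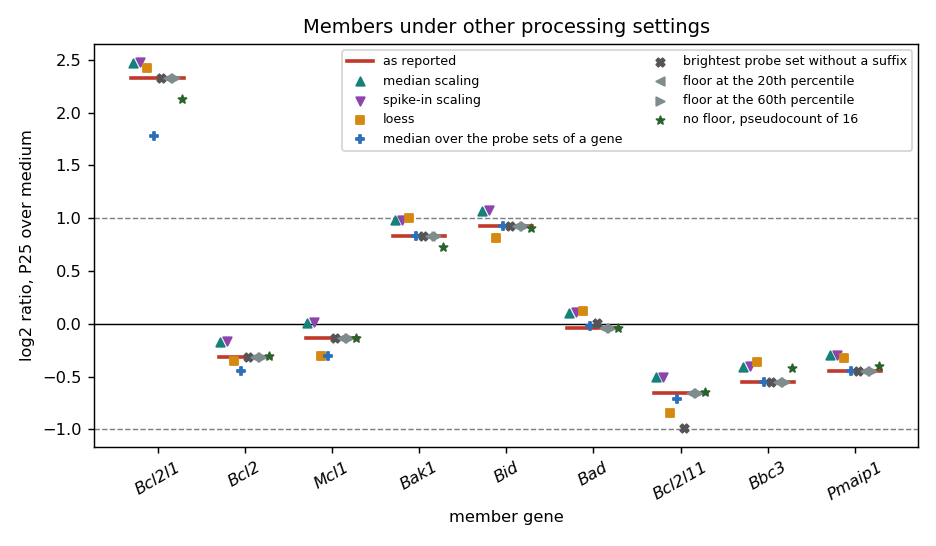
Log2 ratio of P25 over medium of each member as reported (red bar) and under 8 other processing settings (symbols), with dashed lines at 2-fold. Bcl2l1 lies at 1.78 or higher in each, Bid and Bak1 lie close to the 2-fold line, and the symbols of Mcl1 and Bad fall on both sides of 0.

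Further relatives of the family showed no gene past 2-fold. Of 14 listed, 10 had a probe set of their own and 9 were measured, with a median log2 ratio of -0.11. The BH3-only gene Bmf had the lowest log2 ratio, -0.86, with 152 for P25 and 276 for medium, and -0.53 on its other, dimmer probe set. Bnip3, which acts in removal of mitochondria under low oxygen, had 138 with P25 and 199 with medium (-0.53). Bcl2l13 had -0.48 on its brighter probe set and 0.67 on the other, so its direction is not settled by these arrays. Bcl2l2, which encodes the survival protein BCL-w, had a log2 ratio of -0.11, and Bcl2l12 of -0.08. Bcl2l14 (33.9 with P25 and 30.02 with medium) and the BH3-only gene Hrk (17.2 with P25 and 11.5 with medium) were dim, with log2 ratios of 0.17 and 0.59, and each had a second probe set below 0, at -1.17 and -0.38. Bok and Bcl2l10 exceeded the floor on the medium array only, which makes them at least 1.43-fold and at least 1.05-fold lower, and Bik was below the floor on both arrays. Bcl2a1a, Bcl2a1b, Bcl2a1d and Bnip3l had no probe set of a single symbol and were not analysed here.

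Downstream of the mitochondrial pore, 11 genes were measured (median log2 ratio 0.45), and 2 of them passed 2-fold upwards and 1 downwards. For this list and those below, the shares over all measured genes were 9.43% upwards and 7.22% downwards, and no list was tested against them. Cycs, which encodes cytochrome c, read 4168.1 with P25 and 1528.7 with medium (2.73-fold higher), with all 3 probe sets between 1.45 and 1.52 in log2 ratio. Aifm1, a mitochondrial flavoprotein gene, was 2.02-fold higher. The initiator caspase gene Casp9 was 2.42-fold lower on its brighter probe set and had a log2 ratio of 0.50 on the other. Casp6 had a log2 ratio of -0.68. Cytochrome c also serves respiration, so the list's name does not cover all that its members do.

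The 7 inhibitors of apoptosis (median log2 ratio -0.06) held 1 gene past 2-fold in each direction. Birc5, which encodes survivin and acts in mitosis as well, was 4.51-fold higher (507 with P25 and 112 with medium), and Naip5, a sensor of bacterial flagellin, was 2.24-fold lower. Naip2 (-0.32) was within 2-fold, as was Birc6 (0.42), whose 6 probe sets ran from -0.97 to that value. Of 6 genes listed as regulators of MCL1 protein turnover none was at least 2-fold higher and 1 was lower, the pseudokinase gene Trib1, at 2.41-fold (19.4 with P25 and 46.8 with medium). The ubiquitin ligase genes Huwe1 (-0.06), Fbxw7 (0.11) and Btrc (-0.28), the deubiquitinase gene Usp9x (0.11) and the kinase gene Gsk3b (-0.68) were within 2-fold (log2 ratios in parentheses). The probe sets of Usp9x ran from -0.89 to 0.11 and those of Gsk3b from -0.98 to 0.40, and those of Huwe1 and Fbxw7 also lay on both sides of 0.

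Another list held genes that induce BH3-only genes or report p53 activity, of which 7 were measured (median log2 ratio -0.51), 2 past 2-fold upwards and 1 downwards. Foxo1, a forkhead factor that in mouse lymphocytes can drive Bcl2l11, read 485 with P25 and 1161.7 with medium, 2.39-fold lower, with its 3 probe sets between -1.37 and -1.26. Foxo3, another such factor, had a log2 ratio of -0.81. E2f1 was 5.61-fold higher by its brightest probe set, though log2 ratios ran from 0.09 to 2.49 over its 3, and Cdkn1a was 2.09-fold higher with 0.35 on its other probe set. Mdm2 (-0.51) and Ddit3 (-0.63) were within 2-fold, and each lay below 0 on both its probe sets. Trp73 exceeded the floor on the P25 array only, which makes it at least 1.35-fold higher. In the death receptor arm, which activates BID, 5 genes were measured (median log2 ratio 0.28), and 1 passed 2-fold, upwards. Fas had the largest ratio (6.81-fold), while Cflar (0.83, but from -0.23 to 1.98 over its 5 probe sets), Fadd (0.28), Tnfrsf1a (0.00) and Casp8 (-0.30) were within 2-fold. The 11 measured inputs of survival signals (median log2 ratio 0.44) had 1 gene past 2-fold in each direction. Cd40 was 3.18-fold higher and the kinase gene Pim2 1.95-fold. Stat5b had a log2 ratio of -0.39, but Stat5a had 0.65. Tnfrsf13b, a receptor for BAFF and APRIL, was 2.06-fold lower.

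Cell type markers differed between the arrays as well. B cell markers were abundant, with a summed signal over 9 genes of 20720 for P25 and 28560 for medium, and 8 of the 9 had log2 ratios below 0 (median -0.63, from -1.74 for Vpreb3 to 0.23 for Ms4a1). All 8 measured macrophage and monocyte markers lay below 0 (median -1.43, summed signal over 10 genes 1344 for P25 and 3249 for medium), as did all 9 neutrophil markers (median -1.25, summed signal 6920 for P25 and 12857 for medium). Dendritic cell markers went both ways, with a median of -0.70 over 7 genes. Zbtb46 (2.52) and Ly75 (2.11) were at least 2-fold higher, Sirpa (-1.43) was at least 2-fold lower, and 5 of the 7, Itgax (-0.87) among them, lay below 0. Zbtb46 was near the floor with medium (13.98). Its 3 probe sets ran from 1.36 to 2.52 and those of Sirpa from -1.43 to -0.58, and Ly75 rests on 1 probe set. T cell markers were dim, with a summed signal over 8 genes of 120 for P25 and 132 for medium. The 5 of them that were measured had a median of 0.37, with 3 above 0. None was at least 2-fold higher and 1 was at least 2-fold lower, Cd28 (-1.31). Cd3e, Cd3d and Cd4 were below the floor on both arrays. Erythroid markers were below it too. The part of cell makeup in these ratios was not tested, and protein was not measured.

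**Figure D5:**
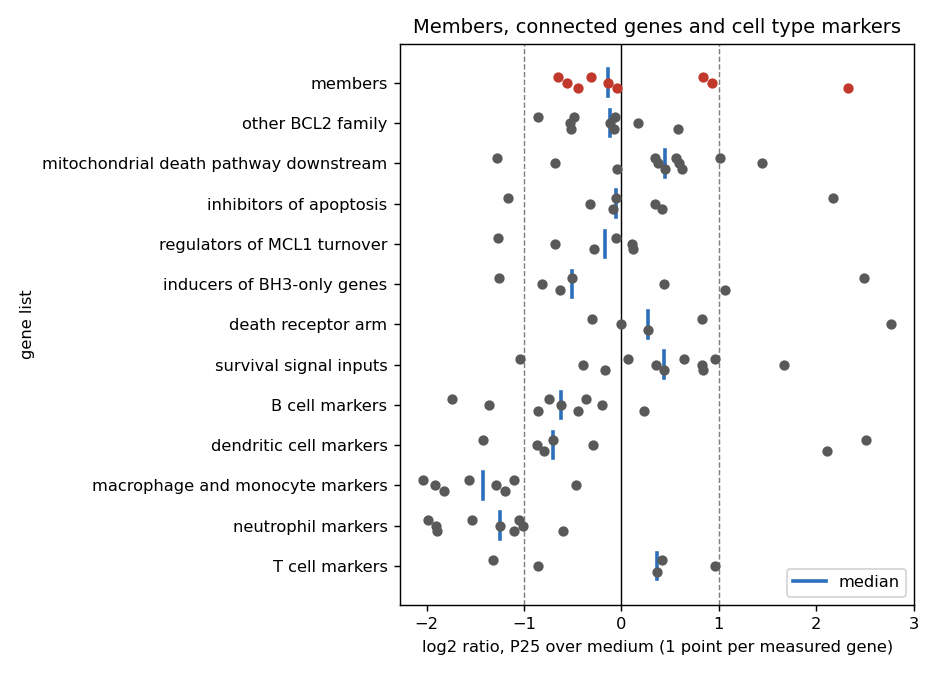
Log2 ratio of P25 over medium for each measured gene (points) of the members, of connected gene lists and of cell type markers, with a blue line at each list's median and dashed lines at 2-fold. The members spread from -0.65 to 2.33 around a median of -0.14, and the macrophage and neutrophil markers lie below 0.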

How the data were processed

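The authors deposited MAS5 intensities on a linear scale, for which the submitters' processing notes name GCOS and MAS5. Neither versions nor the scaling target nor detection calls were at hand. Of 45037 probe sets other than the 64 controls, 34945 had 1 gene symbol in the platform annotation, 932 several and 9160 none, and only the first kind was used. Symbols were updated by Entrez number through a RefSeq table of GRCm38.p6. Signals below the floor (40th percentile of both arrays) were set to it before the log2 ratio of P25 over medium was taken. The probe set of highest mean log2 signal stood for a gene, and a ratio of at least 2 was counted. Members and lists were chosen with earlier results of these data known. Named genes were all members, all other BCL2 relatives, and in each other list the 2 highest and 2 lowest, or all of 6 or fewer. Mdm2, Ddit3, Trp73 and Stat5a were named in addition. Genes of the marker lists are mostly given by count. These include the natural killer list (2 measured, 1 at least 2-fold lower, median log2 ratio -0.52) and the plasma cell list (5 measured, 1 lower, -0.52). Alternatives were another floor, no floor with a pseudocount of 16, median, spike-in and loess scaling, other choices of probe set, and thresholds of 1.5 and 3. The steps were tested on simulated arrays with low noise, where changes well above 2-fold were planted in genes above the floor on both arrays. That does not test calls near 2-fold or 1.5-fold. Python 3.11.15, pandas 2.3.3 and statsmodels 0.14.6 were used.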

Additional observations from a re-analysis of the deposited data

How the results depend on the processing

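Members counted at least 2-fold higher numbered 2 rather than 1 with median scaling, spike-in scaling and loess. All genes at least 2-fold higher numbered 1597 of 12899, 1611 of 12899 and 1282 of 12897 under these settings, against 1216 of 12897. With a threshold of 1.5, 3 members were higher and 1 was lower (Bcl2l11), while 20.9% of all genes were higher and 18.3% lower. Over all genes 2147 passed 2-fold in either direction, against 4371 with a floor at the 20th percentile, 5055 at a threshold of 1.5 and 610 at a threshold of 3. The share of calls that were higher was 56.6%, against 71.0% with median and 71.6% with spike-in scaling. The median log2 ratio of the members (-0.14) went to 0.01 with both of these scalings, to -0.30 with loess and to -0.31 with the median over probe sets. Of 8 alternatives to the processing, 4 to 6 changed the value of each member, and the 2 other floors changed none, since all members were above them. Under those that changed a value, 7 of the 9 members kept their sign. Mcl1 changed sign with median and spike-in scaling, and Bad with these, with loess and with its brightest probe set without a suffix. No paired analysis was possible because each condition has 1 array, and no array could be left out. Dim probe sets, such as that of Bbc3, were less precise than bright ones: log2 ratios of a pair of probe sets differed with an SD of 0.68 where the second was under 100 in signal and of 0.46 where it was brighter.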
